A study of Yarrowia lipolytica with 12 samples.

Results

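The 9 genes followed here belong to fatty acid beta-oxidation in the dimorphic yeast *Yarrowia lipolytica* and were taken by identifier, with earlier results of these data known. They are the 6 acyl-CoA oxidase genes *POX1* (YALI0_E32835g), *POX2* (YALI0_F10857g), *POX3* (YALI0_D24750g), *POX4* (YALI0_E27654g), *POX5* (YALI0_C23859g) and *POX6* (YALI0_E06567g), the multifunctional enzyme gene *MFE2* (YALI0_E15378g), the thiolase gene *POT1* (YALI0_E18568g) and YALI0_F02211g, called F02211 here. F02211 is annotated only as weakly similar to an NADPH-dependent dienoyl-CoA reductase of *Saccharomyces cerevisiae*, so its place in the pathway is a label and not a measurement. It was taken with earlier results known, so its calls below, beside the shares of all genes, are no independent evidence of a change in the pathway. The 9 genes were among 6400 in the count tables, and all 9 had reads in all 12 libraries and passed the filter on low counts in every comparison. The letter after YALI0 in an identifier names the chromosome. Coordinates are not given here.

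In yeasts, fatty acids are broken down in peroxisomes. An acyl-CoA oxidase takes electrons from the activated fatty acid and passes them to oxygen, which makes hydrogen peroxide; the multifunctional enzyme Mfe2 adds water and oxidizes the product; and the thiolase Pot1 releases acetyl-CoA, leaving a shorter chain for the next turn. Unsaturated fatty acids also need auxiliary enzymes such as 2,4-dienoyl-CoA reductase. *Y. lipolytica* is known for growing well on fats and alkanes and for its family of oxidases, of which Aox2, the product of *POX2*, prefers long chains and Aox3, the product of *POX3*, prefers short ones.

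All cells descended from strain PO1a, a *MATA leu2 ura3* strain, and were grown at 30 °C in liquid minimal medium with *N*-acetylglucosamine (GlcNAc) as the sugar to an OD600 of about 0.8, with no other treatment. The 4 groups of 3 libraries were wild-type cells with the empty vector (WT/pYL27), and wild type (WT/pYL27-4NAG), Yl*rep1*Δ (rep1/pYL27-4NAG) and Yl*ngs1*Δ (ngs1/pYL27-4NAG) carrying the 4NAG plasmid. From the actin gene promoter this plasmid drives the transporter gene Yl*NGT1* and the GlcNAc catabolic genes Yl*NAG1*, Yl*DAC1* and Yl*NAG5*. Both mutants lack a regulator of these genes and carry the plasmid so that they can grow on GlcNAc. The study describes both mutants with the plasmid as slower growing and more filamentous than wild type in this medium, so each comparison with wild type was also one between cells that differed in growth and shape. Whether replicates were grown as separate cultures is not stated, and the p-values therefore reflect only the spread among the samples at hand, which may be technical.

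Library totals lay between 15667204 and 22650213 counts. The deleted genes were still counted in the mutant libraries. Yl*REP1* stood at 26.1%, 13.5% and 82.6% of its wild-type 4NAG mean in replicates 1, 2 and 3 of the libraries labelled rep1, and Yl*NGS1* at 0.0708%, 22.7% and 47.2% in those labelled ngs1. Where these reads came from, a mixed culture or a wrong label included, was not tested. Mutant and Yl*rep1*Δ or Yl*ngs1*Δ below mean the libraries so labelled. Replicates also lay farther apart in the mutants: the median gene with at least 10 CPM had a standard deviation of log2(CPM + 1) of 0.0755 and 0.0793 in the wild-type groups with vector and 4NAG, against 0.260 in Yl*rep1*Δ and 0.252 in Yl*ngs1*Δ. CPM values are counts brought to a common library size by TMM normalization. The reads come from bulk cultures, so fewer cells with a transcript and less of it per cell cannot be told apart.

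Transcripts of the members stood at very unequal levels in these cells, which were growing on a sugar. On the FPKM scale, which divides by gene length and so permits levels of different genes to be set side by side, *POT1* stood highest with a median of 334 over the 12 libraries (range 221 to 412). *MFE2* followed at 258 (229 to 334). Their ranges overlapped and their order was not the same in every library: *POT1* stood above *MFE2* in all 6 wild-type libraries and in replicates 2 and 3 of Yl*rep1*Δ, and below it in replicate 1 of Yl*rep1*Δ and in all 3 libraries of Yl*ngs1*Δ. In replicate 2 of Yl*rep1*Δ, at 254 against 252 FPKM, and replicate 3 of Yl*ngs1*Δ, at 333 against 334 FPKM, these genes were nearly level.

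Among the oxidases *POX3* stood at a median of 181 FPKM (141 to 213), *POX2* at 142 (118 to 354) and *POX5* at 108 (72.9 to 238). These ranges overlapped one another. Well below them came *POX4* at 8.33 (3.03 to 12.9) and *POX6* at 8.07 (3.85 to 15.2), which could not be ordered, and *POX1* at 1.33 (0.533 to 2.03), which was lower in its highest library than *POX4* or *POX6* in their lowest. F02211 had a median of 23.1 FPKM and, relative to its level, the widest range of the 9 genes, 2.45 to 83.4. Over the 12 libraries its highest CPM was 37.4 times its lowest, while for the other 8 genes this ratio lay between 1.39 for *POX3* and 4.06 for *POX4*. The oxidases are paralogues, and the sources do not state how reads from stretches they share were assigned.

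**Figure D1:**
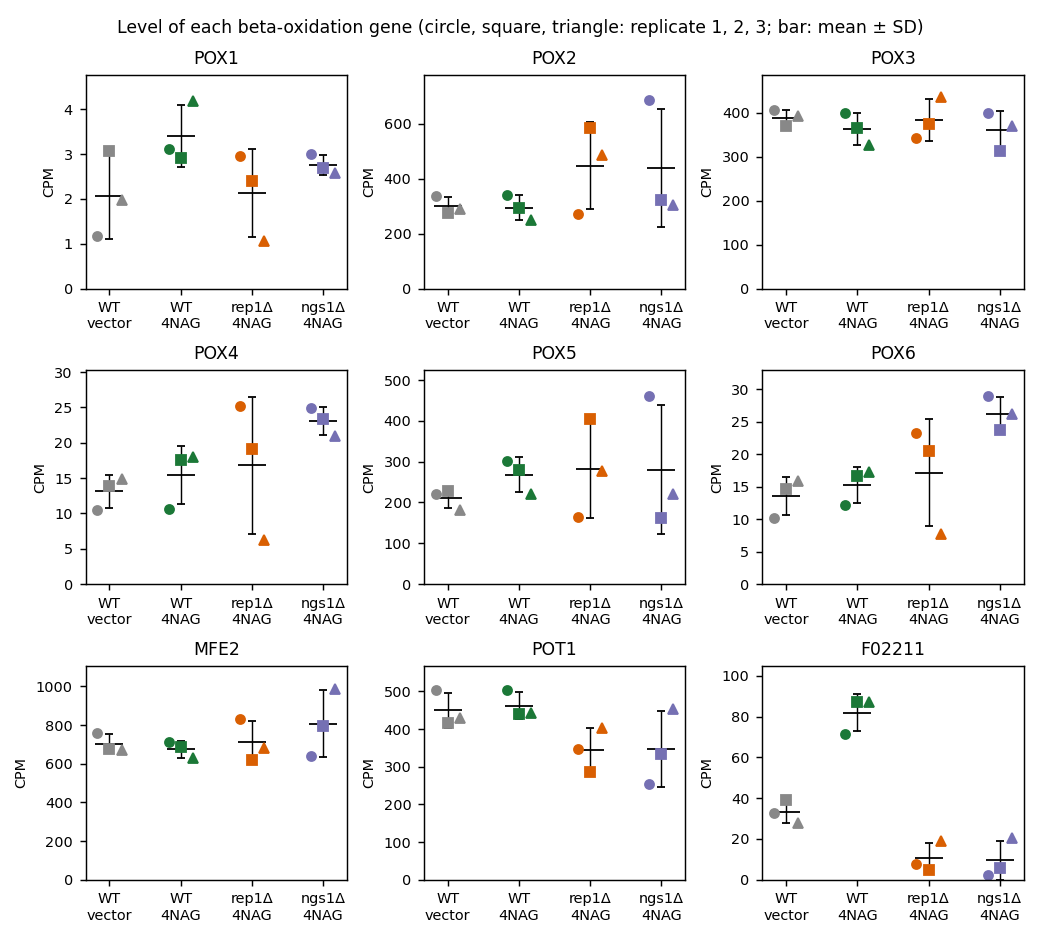
Level of each of the 9 genes in CPM (linear axis from 0, separate scale per gene) in the 4 groups, with circles, squares and triangles for replicates 1, 2 and 3 and a bar for the mean ± SD of 3 libraries. F02211 separates wild-type from mutant libraries, with 71.6 to 87.2 CPM in the 4NAG wild type against 2.33 to 20.2 CPM in the mutants, whose groups overlap. *POX2* and *POX5* spread widely inside the mutant groups.

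The first comparison asks how wild-type cells differ between the 4NAG plasmid and the empty vector. F02211 rose, and no other gene of the 9 passed both thresholds. F02211 stood at 32.5, 38.9 and 27.9 CPM in the 3 vector libraries and at 71.6, 87.2 and 87.1 CPM in the 3 with 4NAG. The groups did not overlap, with means of 33.1 ± 5.52 and 82.0 ± 8.94 CPM (SD, n = 3 each). The change was 2.47-fold (log2 1.31, standard error 0.11, adjusted p = 3.51e-06 by edgeR's quasi-likelihood test with Benjamini-Hochberg adjustment over all 6043 genes tested). A gene is called here at an adjusted p under 0.05 with a change of at least 2-fold, which held for 1 of the 9 genes and for 0.182% of all genes tested. The change lay between 1.20 and 1.44 on the log2 scale with each library left out in turn and was called each time, whereas in a single fit of all 12 libraries, which pools the spread over all groups, its standard error was 0.62 and the adjusted p was 0.9997.

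*POX5* passed the p threshold in this comparison by edgeR, at a change under 2-fold, and not by DESeq2 or limma. It had 220 CPM, 229 CPM and 183 CPM with the vector and 303 CPM, 281 CPM and 219.7 CPM with 4NAG. The lowest 4NAG library lay inside the range of the vector libraries. The difference was 1.27-fold (log2 0.35, standard error 0.10, edgeR adjusted p = 0.0345), and 10.6% of all genes tested had an adjusted p under 0.05 at any fold. The adjusted p of *POX5* was 0.169 with DESeq2, 0.0614 with limma and 0.9997 in the single edgeR fit of 12 libraries, and in edgeR it was 0.0506 and 0.153 without vector replicate 1 or 3 and 0.119 and 0.142 without 4NAG replicate 1 or 2. *POX1*, with 25 to 78 counts per library in these groups, differed by 0.70 on the log2 scale (95% interval 0.03 to 1.37, edgeR adjusted p = 0.172).

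The remaining members, the long- and short-chain oxidase genes *POX2* and *POX3*, *POX4*, *POX6*, *MFE2* and *POT1*, had 95% intervals that stayed within 2-fold in either direction. For *POX3* the interval of the log2 difference was −0.24 to 0.04, for *MFE2* −0.19 to 0.07 and for *POT1* −0.11 to 0.19. The median log2 difference over the 9 genes was 0.18, beside −0.00016 over all genes tested. F02211 was the only one of the 9 whose groups did not overlap, and 30.1% of all genes tested had groups that did not.

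The second comparison asks what differed when Yl*REP1*, the gene of the regulator YlRep1, was deleted, with 4NAG in both groups. Its wild-type libraries were the 4NAG group of the first comparison, so the 2 are not independent. Again F02211 alone passed the test, this time lower in the mutant. It stood at 7.82, 4.66 and 19.2 CPM in replicates 1, 2 and 3 of Yl*rep1*Δ, from 138, 115 and 309 counts, against 71.6, 87.2 and 87.1 CPM in wild-type cells. Every mutant library lay below every wild-type library, those with the vector included. The mean of 10.6 ± 7.63 CPM (SD, n = 3) corresponded to a 7.84-fold fall (log2 −2.97, standard error 0.48, 95% interval −4.10 to −1.84, edgeR adjusted p = 0.0388 over 6041 genes). Of all genes tested, 1.39% were called and 0.331% were called lower.

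How far F02211 fell differed between the Yl*rep1*Δ libraries in the same order as the reads counted on the deleted gene. F02211 stood at 9.55%, 5.69% and 23.4% of its wild-type 4NAG mean in replicates 1, 2 and 3, where Yl*REP1* stood at 26.1%, 13.5% and 82.6%. The part of these reads in the result was not tested. Without replicate 3 the fall was −3.73 on the log2 scale (edgeR adjusted p = 0.00177). The call was lost without replicate 2 of Yl*rep1*Δ (adjusted p = 0.0507) and without replicate 1, 2 or 3 of wild type with 4NAG (adjusted p = 0.206, 0.207 and 0.212), while the log2 change stayed between −3.73 and −2.60. Set against wild-type cells with the vector, where F02211 starts lower, the log2 change was −1.66 (standard error 0.47, edgeR adjusted p = 0.107).

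The thiolase gene *POT1* was the other member whose groups did not overlap. It had 504 CPM, 440.5 CPM and 442 CPM in 4NAG wild type and 346 CPM, 286 CPM and 402 CPM in Yl*rep1*Δ. All mutant libraries were lower, by 1.34-fold (log2 −0.42, 95% interval −0.79 to −0.05), and the difference missed the threshold (edgeR adjusted p = 0.164). With single libraries left out, *POT1* passed the p threshold only without replicate 3 of Yl*rep1*Δ (log2 −0.55, edgeR adjusted p = 0.0395), under 2-fold. Groups did not overlap for 2 of the 9 genes and for 32.7% of all genes tested.

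No oxidase gene was called by edgeR, DESeq2 or limma. *POX2* had 339.6 CPM, 294 CPM and 252 CPM in 4NAG wild type and 273 CPM, 584 CPM and 486 CPM in Yl*rep1*Δ. Replicates 2 and 3 of the mutant lay above all wild-type libraries and replicate 1 lay among them, so the groups overlapped (log2 0.60, 95% interval −0.05 to 1.25, edgeR adjusted p = 0.231). With single libraries left out, *POX2* passed the p threshold only without replicate 1 of Yl*rep1*Δ (log2 0.86, edgeR adjusted p = 0.0257), under 2-fold. *POX5* had 164 CPM, 404 CPM and 276 CPM in replicates 1, 2 and 3 of Yl*rep1*Δ, which fell below, above and inside the wild-type range of 219.7 to 303 CPM. Its difference of 0.07 on the log2 scale had an interval from −0.66 to 0.80.

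*POX4* and *POX6* also scattered in Yl*rep1*Δ, with the low library a different one. *POX4* had 25.2, 19.1 and 6.20 CPM and *POX6* 23.4, 20.5 and 7.76 CPM in replicates 1, 2 and 3. In wild-type cells with 4NAG *POX4* had 10.7 to 18.0 CPM and *POX6* 12.1 to 17.3 CPM. For both genes replicates 1 and 2 lay above that range and replicate 3, in which Yl*REP1* was nearest to wild type, lay below it. The interval of the log2 difference was wide for both, −0.97 to 1.23 for *POX4* and −0.73 to 1.07 for *POX6*, so a 2-fold change either way was not resolved.

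The short-chain oxidase gene *POX3* and *MFE2* were measured more tightly. *POX3* had 342 CPM, 373 CPM and 436 CPM in Yl*rep1*Δ against 398 CPM, 364 CPM and 326 CPM in wild type (log2 0.08, 95% interval −0.26 to 0.42). *MFE2* had 833 CPM, 617 CPM and 683 CPM against 712 CPM, 684 CPM and 628 CPM (log2 0.08, 95% interval −0.28 to 0.43). For both genes the mutant libraries overlapped those of wild type and the intervals exclude a 2-fold change. *POX1* had only 17 to 59 counts per library in Yl*rep1*Δ, with 2.95, 2.39 and 1.05 CPM against 3.11, 2.91 and 4.18 CPM, and its interval of −1.60 to 0.27 did not exclude a 2-fold fall.

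Over the 9 genes the median log2 difference was 0.08, beside 0.01 over all genes tested, and the median size of the difference regardless of sign was 0.17 beside 0.25.

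**Figure D2:**
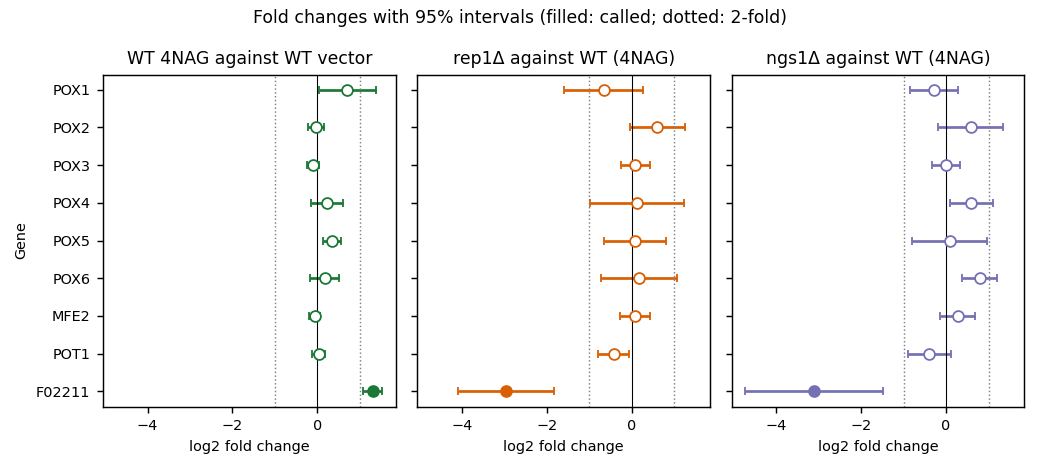
Log2 fold change of each gene with its 95% interval (x axis) for 4NAG against vector in wild-type cells and for each mutant against wild type with 4NAG, with filled points for called genes and dotted lines at a 2-fold change. F02211, at 1.31, −2.97 and −3.11, is the single filled point in each panel. All panels use the same 3 wild-type libraries with 4NAG, so their values are not independent.

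The third comparison asks the same of Yl*NGS1*, whose counterpart in *Candida albicans* encodes a GlcNAc sensor. It shares the 3 wild-type 4NAG libraries with the comparison of Yl*rep1*Δ and with that of 4NAG against vector, so these sets of values are not independent. F02211 was again the only member called, and it was lower in Yl*ngs1*Δ. It stood at 2.33, 5.86 and 20.2 CPM in replicates 1, 2 and 3, from 45, 98 and 329 counts. None of these libraries reached the lowest wild-type library of either kind. The mean was 9.48 ± 9.49 CPM (SD, n = 3) and the fall 8.62-fold (log2 −3.11, standard error 0.69, 95% interval −4.74 to −1.48, edgeR adjusted p = 0.0239 over 6040 genes). Of all genes tested, 7.67% were called and 2.3% were called lower.

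Here too the library with the most reads of the deleted gene had the most F02211. It stood at 2.84%, 7.15% and 24.7% of the wild-type 4NAG mean in replicates 1, 2 and 3, beside 0.0708%, 22.7% and 47.2% for Yl*NGS1*. The part of these reads in the result was not tested. The log2 change lay between −4.34 and −2.65 with each library left out in turn, and the call was lost without replicate 2 of Yl*ngs1*Δ (edgeR adjusted p = 0.0958) and without replicate 1, 2 or 3 of wild type with 4NAG (adjusted p = 0.0773, 0.0860 and 0.0803). Against wild-type cells with the vector the log2 change was −1.81 (standard error 0.67, edgeR adjusted p = 0.107).

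The weakly transcribed oxidase genes *POX6* and *POX4* were higher in every Yl*ngs1*Δ library than in any wild-type library. *POX6* had 28.9, 23.7 and 26.2 CPM against 12.1, 16.6 and 17.3 CPM in wild type with 4NAG. The change was 1.73-fold (log2 0.79, standard error 0.17, edgeR adjusted p = 0.0236), past the p threshold and under the fold threshold, where 17.8% of all genes tested had an adjusted p under 0.05 at any fold. It missed the p threshold without replicate 1, 2 or 3 of wild type with 4NAG (edgeR adjusted p = 0.0870, 0.0814 and 0.0656), without replicate 2 of Yl*ngs1*Δ (0.0589) and in the single fit of 12 libraries (0.116), and passed it with DESeq2 (0.00127) and limma (0.00225). *POX4* had 24.9, 23.3 and 21.0 CPM against 10.7, 17.5 and 18.0 CPM, a 1.51-fold difference (log2 0.60, 95% interval 0.08 to 1.11). It missed the p threshold with edgeR (adjusted p = 0.104) and DESeq2 (0.0695) and passed it with limma (0.0146). With F02211, *POX6* and *POX4* made 3 of the 9 genes whose groups did not overlap, and 42.8% of all genes tested were of that kind.

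*POX2* and *POX5*, the strong oxidase genes that scattered in Yl*rep1*Δ, did so in Yl*ngs1*Δ as well. *POX2* had 685 CPM in replicate 1 and 322 CPM and 306 CPM in replicates 2 and 3. *POX5* had 459.8 CPM in replicate 1 and 161 CPM and 221 CPM in the others. Replicate 1, the library with the least Yl*NGS1*, was thus the high one for both genes, and the others lay inside or below the range of wild type with 4NAG. The differences from wild type did not pass edgeR's test, at 0.58 on the log2 scale for *POX2* (95% interval −0.19 to 1.35, edgeR adjusted p = 0.254) and 0.08 for *POX5* (−0.80 to 0.96). With limma *POX5* was lower, at −0.60 (adjusted p = 0.00880). Without replicate 1 of Yl*ngs1*Δ it was also lower in edgeR, at −0.48 (adjusted p = 0.038). Both were under 2-fold.

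*POX3* had 399 CPM, 313 CPM and 369 CPM in Yl*ngs1*Δ, within 2-fold of wild type at both ends of its interval (log2 −0.33 to 0.34). *MFE2* had 638 CPM, 796 CPM and 987 CPM (log2 0.27, 95% interval −0.15 to 0.69, edgeR adjusted p = 0.326). *POT1* had 253 CPM, 334 CPM and 453 CPM (log2 −0.40, 95% interval −0.91 to 0.11, edgeR adjusted p = 0.234). In these libraries *MFE2* and *POT1* were both highest in replicate 3 and lowest in replicate 1. Limma put *MFE2* (adjusted p = 0.0174) and *POT1* (0.00424) past the p threshold at changes under 2-fold, and DESeq2 did not (0.351 and 0.204). In edgeR *MFE2* passed it only without replicate 1 of Yl*ngs1*Δ (0.0165) and *POT1* only without replicate 3 (0.0322). *POX1* had 3.00, 2.69 and 2.58 CPM and differed by −0.28 on the log2 scale (−0.84 to 0.28). The median log2 difference over the 9 genes was 0.08 beside 0.02 over all genes tested, and its median size 0.40 beside 0.29.

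**Figure D3:**
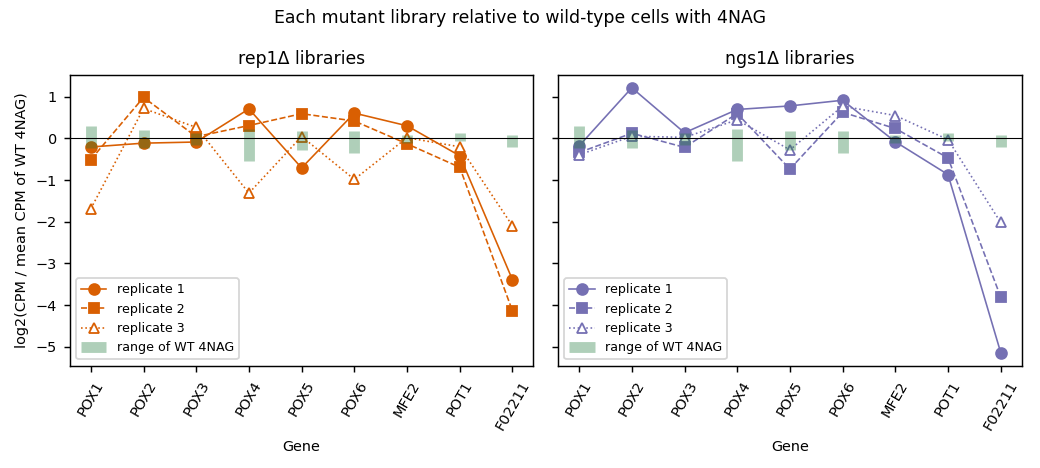
Each mutant library as log2 of its CPM over the mean CPM of wild-type cells with 4NAG (y axis) for the 9 genes, with lines that only join the points of a library and green bars for the range of the 3 wild-type libraries. F02211 lies below the wild-type range in all 6 mutant libraries, from 24.7% down to 2.84% of the mean, while *POX2* and *POX5* lie high in replicate 2 of Yl*rep1*Δ and replicate 1 of Yl*ngs1*Δ.

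Set against each other, the mutants gave no call by edgeR's test in any of the 9 genes. All had an adjusted p of 0.9997, and 0 of the 9 had an unadjusted p under 0.05. The same comparison called 0.0% of the 6016 genes tested, with 1.18% at an unadjusted p under 0.05, and DESeq2 and limma also called 0 genes. The spread inside the mutant groups left wide intervals. For F02211 the log2 difference of Yl*ngs1*Δ minus Yl*rep1*Δ was −0.16 with an interval from −2.09 to 1.77, which excludes neither a 2-fold rise nor a 2-fold fall. The intervals of *POX3* (−0.52 to 0.34), *MFE2* (−0.34 to 0.70) and *POT1* (−0.59 to 0.60) stayed within 2-fold. *POX6* alone had groups that did not overlap, with 23.4, 20.5 and 7.76 CPM in Yl*rep1*Δ below all 3 Yl*ngs1*Δ libraries (log2 0.61, −0.30 to 1.52). For all genes tested that share was 5.62%.

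The make-up of the oxidase transcripts was described from the FPKM of the 6 *POX* genes in each library, without a test. *POX2*, *POX3* and *POX5* together held 93.7% to 98.8% of the summed oxidase FPKM in every library. In wild-type cells *POX3* held the most in each library, with a mean of 41.8 ± 1.52% with the vector and 37.8 ± 0.93% with 4NAG (SD, n = 3 each). *POX5* stood at 22.7 ± 2.47% with the vector and 27.8 ± 1.35% with 4NAG, and *POX2* at 32.4 ± 1.83% and 30.7 ± 1.00%.

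In the mutants the shares of *POX3* were 34.6 ± 7.37% in Yl*rep1*Δ and 33.6 ± 7.63% in Yl*ngs1*Δ, and those of *POX2* 38.2 ± 4.66% and 37.7 ± 5.25%. The standard deviations of both were larger than in either wild-type group. The sum over the oxidases followed *POX2* and *POX5*. It was 371 FPKM, 738 FPKM and 594 FPKM in replicates 1, 2 and 3 of Yl*rep1*Δ and 828 FPKM, 382 FPKM and 413 FPKM in those of Yl*ngs1*Δ, against 393 to 502 FPKM in wild-type cells with 4NAG and 428 to 478 FPKM with the vector. Replicate 2 of Yl*rep1*Δ and replicate 1 of Yl*ngs1*Δ, the libraries with the fewest reads on their deleted gene relative to wild type, were the highest of their groups. FPKM is scaled to the library total without TMM, so the size of these differences between libraries is rough.

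**Figure D4:**
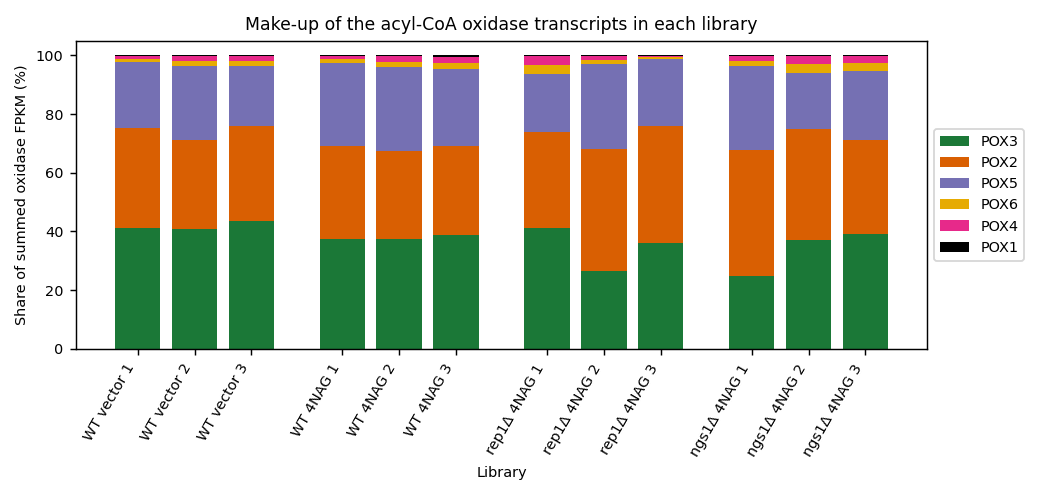
Share of each acyl-CoA oxidase gene in the summed FPKM of *POX1* to *POX6* (y axis, percent) in each of the 12 libraries, as bars stacked from 0. *POX2*, *POX3* and *POX5* make up 93.7% to 98.8% of every bar, and the *POX3* part is thinnest in replicate 2 of Yl*rep1*Δ and replicate 1 of Yl*ngs1*Δ.

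Inside a library *POX4* and *POX6* kept a narrow ratio, and the pairs described were chosen after their values were seen. The FPKM of *POX4* over that of *POX6* lay between 0.786 and 1.06 in all 12 libraries, with a median of 0.930, while the CPM of *POX4* itself varied 4.06-fold. *POX2* over *POX5* varied more, between 1.05 and 2.00. The lowest values of that ratio were those of wild-type cells with 4NAG, at 1.12, 1.05 and 1.14 in replicates 1, 2 and 3. It was 1.53, 1.21 and 1.60 with the vector, 1.66, 1.44 and 1.75 in Yl*rep1*Δ and 1.49, 2.00 and 1.38 in Yl*ngs1*Δ, so the 4NAG group of wild-type cells overlapped none of the others. *MFE2* over *POT1* lay between 0.65 and 0.75 in the wild-type libraries and between 0.78 and 1.16 in those of the mutants. How many other pairs of genes separate groups in this way was not counted.

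The spread of a member between replicates, as the standard deviation of log2(CPM + 1), differed among the members and between the mutants. The 1 added lowers this spread for genes at low CPM. In Yl*rep1*Δ it was 0.18 for *POX3*, 0.22 for *MFE2* and 0.25 for *POT1*, below the 0.26 of the median gene with at least 10 CPM. For *POX2* it was 0.57, for *POX5* 0.65, for *POX6* 0.80, for F02211 0.93 and for *POX4* 0.98. In Yl*ngs1*Δ the wide ones were *POX2* at 0.65, *POX5* at 0.77 and F02211 at 1.35. *POT1* at 0.42 and *MFE2* at 0.31 also lay above the median of 0.25, and *POX3* at 0.18, *POX6* at 0.14 and *POX4* at 0.12 lay under it. *POX4* and *POX6* were thus among the wide members in Yl*rep1*Δ and among the narrow ones in Yl*ngs1*Δ.

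The genes most like each member were looked up by Pearson's r of log2(CPM + 1) over the 12 libraries, among 5103 genes with a mean of at least 10 CPM. These are descriptions, since the points share libraries and groups. *POX4* and *POX6* were each other's nearest gene, with r = 0.969. The closest to F02211 were YALI0_F20966g at 0.989, YALI0_A17020g at 0.985 and YALI0_E12463g at 0.982. The closest to *POX2* was YALI0_D26994g at 0.968 and the closest to *POT1* was YALI0_B15224g at 0.970. No other pair of members stood among each other's 3 nearest genes. The best match of *POX3*, YALI0_D19096g, reached 0.880 and that of *POX1*, YALI0_F04543g, 0.854.

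Another 7 genes that the study annotates with a role in fatty acid or hydrogen peroxide metabolism were set beside the members. The study listed them because they changed in these samples, so their directions are no independent evidence. In Yl*ngs1*Δ 3 of the 7 were higher and 4 lower, where 5.36% of all genes tested were called higher and 2.3% lower. The genes that rose were YALI0_A15103g (log2 1.37, edgeR adjusted p = 0.00550), similar to the medium-chain acyl-CoA synthetase Faa2 of *S. cerevisiae*, YALI0_E16016g (1.19, adjusted p = 0.00276), similar to the very-long-chain acyl-CoA synthetase and fatty acid transporter Fat1, and YALI0_D01694g (1.25, adjusted p = 0.0259), similar to the peroxisomal dienoyl-CoA reductase Sps19. In *S. cerevisiae* Faa2 and Fat1 activate fatty acids for later steps, and Sps19 serves the breakdown of unsaturated ones.

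The genes that fell in Yl*ngs1*Δ included both catalase genes, whose products in *S. cerevisiae* break down hydrogen peroxide. YALI0_E34265g fell by 4.45 on the log2 scale (edgeR adjusted p = 0.00428) and YALI0_E34749g, Yl*CTT1*, by 1.17 (adjusted p = 0.00788). Both are compared with cytosolic catalase T and not with a peroxisomal enzyme. YALI0_F01650g, weakly similar to Sps19, fell by 1.09 (adjusted p = 0.0316), as F02211, the other weak match to a dienoyl-CoA reductase, did, whereas the closer Sps19 match above rose. That closer match, YALI0_D01694g, had few reads, with 22 to 39 counts per library in wild type with 4NAG and 55 to 82 in Yl*ngs1*Δ. YALI0_F23749g, an acyl-CoA dehydrogenase most like a probable glutaryl-CoA dehydrogenase, an enzyme of amino acid breakdown, fell by 1.82 (adjusted p = 0.00136).

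In Yl*rep1*Δ 0 of the 7 were called higher (1.06% of all genes tested) and 2 lower (0.331%), YALI0_E34749g by 1.19 on the log2 scale (edgeR adjusted p = 0.0175) and YALI0_F23749g by 1.34 (adjusted p = 0.0439). The Fat1-like gene differed by 0.95 (adjusted p = 0.0318), under 2-fold. The catalase gene YALI0_E34265g, at 14.0, 55.6 and 211 CPM, lay below every 4NAG wild-type library and was not called (log2 −1.92, edgeR adjusted p = 0.204). DESeq2 called 2 of the 7 in Yl*rep1*Δ, beside 307 of the 6135 genes to which it gave an adjusted p. Limma called 3, beside 213 of 6041. Neither edgeR, DESeq2 nor limma called any of the 7 between the mutants or between 4NAG and vector. Between the mutants edgeR gave 1 unadjusted p under 0.05, for YALI0_E34265g (log2 −2.55 for Yl*ngs1*Δ minus Yl*rep1*Δ), beside 1.18% of all genes tested. Limma gave 3, and its share over all genes was not counted. Between 4NAG and vector edgeR gave 3 adjusted p under 0.05 at changes under 2-fold, where 10.6% of all genes tested had an adjusted p under 0.05 at any fold. The median log2 difference over the 7 was −0.65 in Yl*rep1*Δ and −1.09 in Yl*ngs1*Δ, beside 0.01 and 0.02 over all genes tested. Each of these medians is the value of YALI0_F01650g. The list was picked for change in these samples, so they show no shift of fatty acid genes as a class.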

How the data were processed

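RNA-Seq libraries of 4 groups with 3 samples each were analysed. Per gene, the authors deposited read counts as whole numbers, and FPKM values that equal the count divided by coding length and library total. The submitters' notes name TopHat2 2.1.1, Cufflinks 2.2.1 and the mouse build mm10; the program that counted reads, its annotation and its strand setting are not given in the sources used. Of 6400 genes, 24 were missing from at least 1 table, with at most 20 counts elsewhere, and were taken as 0 there. FPKM was used to compare genes with each other and CPM to compare libraries, except that the sum over the oxidases was given in FPKM.

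Groups came from the sample labels. From the counts, 4 comparisons of 3 against 3 libraries were made across all genes in edgeR 4.0.16 (R 4.3.3; quasi-likelihood test, TMM, filterByExpr), with calls at a 2-fold change or more and an adjusted p (Benjamini-Hochberg) under 0.05. No 2 libraries of a group were duplicates, since counts of replicates differed by a chi-square per degree of freedom of 7.37 to 14.4 in wild type and 61.6 to 425.5 in the mutants. Over all genes, replicates thus lay farther apart than counting error, while for *POX1*, with 17 to 78 counts per library, depth also limited precision.

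Alternatives were DESeq2 1.42.0, edgeR with DESeq2's size factors, with no filter or with a filter at a mean count of 10, an unadjusted p, no fold threshold, a single fit of 12 libraries, a replicate block, limma 3.58.1 with sample weights and leaving out each library. Added after seeing the data were wild type with vector as the reference, and both mutants less replicate 3. The text names all members, their 3 most alike genes in part, and the called genes of the list of 7. Members, lists and rules were chosen with earlier results of these data known. Genes with no annotation in the sources used here were given no name or role. Figures were drawn in Python 3.11.15 with matplotlib 3.10.9.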

Additional observations from a re-analysis of the deposited data

How the results depend on the processing

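The calls of F02211 in the mutants depended on single libraries, while its direction did not. The count of members called lower went from 1 to 0 in both mutant comparisons without some single libraries (range 0 to 1 for each), those named beside the result. In the other direction, without a fold threshold the count of members higher became 1 (*POX6*) in Yl*ngs1*Δ and 2 (F02211 and *POX5*) for 4NAG against vector, and the single fit of all 12 libraries left 0 for 4NAG against vector. DESeq2, its size factors in edgeR, the filters, an unadjusted p and limma changed none of the counts of members called higher or lower. Over all genes, DESeq2 called 307 and limma 213 in Yl*rep1*Δ against wild type, beside 84 by edgeR. With 3 libraries a group, changes under about 2-fold in the mutants were often not resolved.

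Whether replicate numbers pair the samples was not settled by correlations of same-numbered deviations from the group means. These were 0.0317, 0.00126 and −0.25 for Yl*rep1*Δ with wild type and 0.0251, −0.166 and 0.0446 for Yl*ngs1*Δ with wild type. Between the mutants they were −0.644, −0.541 and 0.218. Between the wild-type groups they were 0.0965, 0.0989 and 0.125, small and all positive, so a weak pairing there is not excluded. With the replicate block F02211 changed by −3.18 in Yl*rep1*Δ (adjusted p = 0.0208) and by −3.57 in Yl*ngs1*Δ (adjusted p = 0.0112), and the block moved no count of members called. *POX6* in Yl*ngs1*Δ missed the p threshold with the block (adjusted p = 0.0573). For 4NAG against vector the standard error of *POX5* fell from 0.099 to 0.053 with the block (adjusted p = 0.00103). Signs turned under the block for *POX4* (−0.023) and *POX5* (−0.0024) in Yl*rep1*Δ, *POX5* in Yl*ngs1*Δ (−0.049) and *POT1* between the mutants (−0.019).

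All turned signs, these and the following, were of members not called, and their cause was not tested. In Yl*rep1*Δ they were *POX4* with limma (−0.034) and, against the vector group, *POX1* (0.063) and *POX3* (−0.0086). In Yl*ngs1*Δ they were *POX3* with DESeq2 (−0.0023), its size factors (−0.0029), no filter (−0.011), 12 libraries (−0.0098), limma (−0.15) and the vector group (−0.093). *POX1* also turned there against the vector group (0.43), and *POX5* with limma (−0.60, limma adjusted p = 0.00880). Between the mutants *POT1* turned with DESeq2 (−0.0011) and its size factors (−0.00021). Without replicate 3 of both mutants *POX2* (0.23), *POX5* (0.13), *MFE2* (−0.015) and *POT1* (−0.11) turned.

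With a library left out in turn, log2 differences ranged in Yl*rep1*Δ from −0.020 to 0.16 for *POX3*, −0.27 to 0.52 for *POX4*, −0.28 to 0.35 for *POX5*, −0.11 to 0.51 for *POX6* and −0.054 to 0.17 for *MFE2*. In Yl*ngs1*Δ they ranged from −0.084 to 0.093 for *POX3* and −0.48 to 0.36 for *POX5*, with −0.48 without replicate 1 of Yl*ngs1*Δ (edgeR adjusted p = 0.038). Between the mutants they ranged from −0.52 to 0.21 for *POX2*, −0.18 to 0.0085 for *POX3*, −0.57 to 0.35 for *POX5*, −0.24 to 0.18 for *POT1* and −1.37 to 0.60 for F02211. For 4NAG against vector they ranged from −0.15 to 0.070 for *POX2* and −0.033 to 0.13 for *POT1*.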
